A study of Mus musculus with 34 samples.

Results

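Wide H3K4me3 domains were defined as WT_H3K4me3 peaks at least 4 kb wide on chromosomes 1 to 19. There were 2359 such domains among the 23523 WT H3K4me3 peaks on these chromosomes, which is 10.03% of the peaks and 28.3% of the bases they covered. The members were chosen by their width in the WT H3K4me3 list, so that width is a description of the set and not a finding about it.

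The lists came from ChIP-seq of bone marrow-derived dendritic cells (BMDCs), which are bone marrow cells of C57BL/6 mice, labelled as 8 weeks old, grown for 6 days with GM-CSF and selected for the surface protein CD11c. WT cells carried CreER, a Cre recombinase expressed from the Rosa26 locus that acts once tamoxifen is bound, and KO cells carried CreER and loxP-flanked Ctcf alleles (CreER;CTCF fl/fl). All cultures received 4-OH tamoxifen on the first day of culture only. Cells were left unstimulated (WT, KO) or were stimulated for 3 h with 100 ng/ml of LPS, the bacterial outer membrane component that TLR4 senses (WTLPS, KOLPS), and for STAT5 the WT and KO cells had GM-CSF added again 15 min earlier. Each antibody and condition had 1 deposited list and no replicate to compare, so there is no test, and intervals in parentheses are 95% Wilson intervals that cover counting error only. The labels do not say whether a list came from 1 sample or from pooled replicates, nor how many animals it holds. In such bulk profiles a narrower mark in every cell and a loss of the mark in some cells cannot be told apart.

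H3K4me3 is laid down at active promoters by SET1 and MLL methyltransferase complexes, and most marked promoters carry it within a short stretch around the start site. A small set of genes carries it over several kilobases, and such broad domains are known for covering genes that define the identity of a cell type as well as some very active genes. STAT5 is the transcription factor that acts downstream of the GM-CSF receptor, p65 (RelA) is the NF-κB subunit that enters the nucleus after TLR4 is engaged, SMC1 is a subunit of the cohesin ring, and CTCF is the DNA-binding protein at which cohesin stops.

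The 7 sequences that follow are the strongest sites inside the domains with a motif of their factor near the summit, and they show what the STAT5, p65 and CTCF counts given further on refer to. Coordinates are 1-based in GRCm38 (mm10), the forward strand is written from the RefSeq genome, and capitals mark the motif within 50 bp of the summit. The motif letters were TTCNNNGAA for STAT5, GGNNTTTCC for p65 and CCNNNAGNNGGC for CTCF, searched on both strands. Where the window reached an annotated UTR, 30 bases around the motif are given, and otherwise the summit with 100 bases to either side. Fold is the deposited enrichment of a peak over its local background. The strongest WT STAT5 peak of the domains (fold 68.7) lay 25 bp upstream of a start site of Cish, a feedback inhibitor of STAT5 signalling, and its site held the motif 2 times. The next with the motif (fold 52.0) lay in a coding exon of Bcl6, a transcriptional repressor, where the longest transcript inside the domain belongs to the overlapping gene model Gm37419. The STAT5 site of Rhoq, which encodes a small GTPase, lay outside genes, 460 bp upstream of the start site (fold 45.5).
Cish, chr9:107296659-107296688: TTCCTGGAAagTTCTTGGAAatctgtcaaa
Bcl6, chr16:23988578-23988607: gtgtccggcctTTCCTAGAAacttcttgca
Rhoq, chr17:86962522-86962722: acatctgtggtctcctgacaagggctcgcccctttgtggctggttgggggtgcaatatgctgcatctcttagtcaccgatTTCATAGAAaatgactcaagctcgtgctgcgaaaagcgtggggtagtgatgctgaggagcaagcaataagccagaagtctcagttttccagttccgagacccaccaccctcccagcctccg
The strongest WTLPS p65 site with the motif lay in an intron of Gsap, 2911 bp downstream of a start site (fold 43.7). Those of Nlrp3, an inflammasome sensor, and of Tnf, a central inflammatory cytokine, lay outside genes, 101 bp (fold 41.0) and 499 bp (fold 33.4) upstream of their start sites.
Gsap, chr5:21189124-21189324: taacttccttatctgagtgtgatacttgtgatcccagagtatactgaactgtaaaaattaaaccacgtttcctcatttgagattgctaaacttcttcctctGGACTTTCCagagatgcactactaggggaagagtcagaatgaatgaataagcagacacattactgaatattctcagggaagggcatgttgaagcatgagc
Nlrp3, chr11:59541367-59541567: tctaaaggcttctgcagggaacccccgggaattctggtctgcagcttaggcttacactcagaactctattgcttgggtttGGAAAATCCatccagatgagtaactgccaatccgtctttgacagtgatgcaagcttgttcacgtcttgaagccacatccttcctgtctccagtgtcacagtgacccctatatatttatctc
Tnf, chr17:35202406-35202606: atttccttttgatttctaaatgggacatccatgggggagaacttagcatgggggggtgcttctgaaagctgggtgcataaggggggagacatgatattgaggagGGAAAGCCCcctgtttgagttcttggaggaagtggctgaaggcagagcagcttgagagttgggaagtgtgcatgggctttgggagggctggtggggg
The strongest WT CTCF site with the motif lay in an intron of Plec, which encodes a linker of the cytoskeleton, 1139 bp upstream of the nearest start site (fold 42.4).
Plec, chr15:76196749-76196949: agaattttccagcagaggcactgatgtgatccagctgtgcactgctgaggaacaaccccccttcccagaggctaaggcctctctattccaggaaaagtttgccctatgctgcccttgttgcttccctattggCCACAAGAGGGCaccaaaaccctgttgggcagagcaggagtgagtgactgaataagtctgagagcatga

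The domains had a median width of 4736 bp (quartiles 4312 and 5545 bp), 1406 of them (59.6%) were under 5 kb, and 11 reached 10 kb. The widest domain, at Psap, the precursor of the lysosomal saposins, measured 13923 bp in WT. It was followed by Zeb2, a transcription factor of myeloid and dendritic cell development, at 12833 bp, and by a shared domain of 11708 bp over Tyrobp and Hcst, which encode signalling adaptors of immune receptors, and Nfkbid, an atypical IκB protein. The other members of the 10 widest covered Gtpbp1 with Josd1 (11153 bp), Brd2 (10812 bp), Bcl6 (10754 bp), the H3K4 methyltransferase gene Setd1b (10734 bp), Tnrc18 (10670 bp), the long non-coding RNA Neat1 (10333 bp) and Zfp608 (10172 bp). At the threshold, Ssu72 and Wbp1 measured 4000 bp and were members, while Rbm15 and Tmem30a measured 3999 bp and were not.

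**Figure D1:**
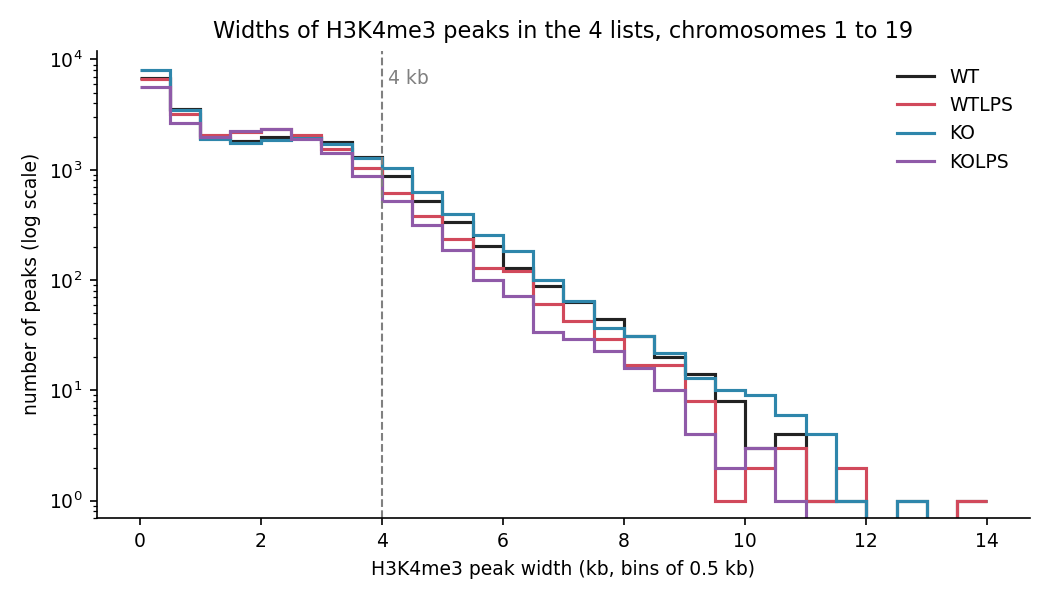
Number of H3K4me3 peaks on chromosomes 1 to 19 (log scale) by width in bins of 0.5 kb, for the 4 lists, with the 4 kb threshold as a dashed line. Beyond 4 kb the KO list held the most peaks and the KOLPS list the fewest, with 2797 and 1318 against 2359 in WT and 1667 in WTLPS.

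A protein-coding start site (longest transcript, GENCODE vM21) lay inside 2095 domains, or 88.8% (87.5 to 90.0), against 80.8% (79.9 to 81.7) of the peaks of 2 to 4 kb and 41.8% of those of 1 to 2 kb. A longer interval holds more start sites by its length alone, and this part of the difference was not tested. When every protein-coding transcript was counted, 97.4% of the domains held a start. By longest transcripts, 1665 domains held 1 start, in 398 there were 2, and in 392 (16.6%) starts lay on both strands, against 6.90% of the peaks of 2 to 4 kb. In the 1665 domains with 1 start the mark reached a median of 1411 bp upstream and 3391 bp downstream of it, and 90.2% extended further downstream, a share close to the 90.9% of 2 to 4 kb peaks. Of the 62 domains with no protein-coding start of any transcript, 37 held the start of a non-coding gene, and Neat1, an architectural RNA of nuclear paraspeckles, was the widest of these.

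The domains held the starts of 2562 protein-coding genes, or 23.5% of the 10882 genes with a start under any WT H3K4me3 peak, and this share is the background for every list of genes. Among dendritic cell identity genes, 16 of 25 with a peak were under a wide domain, or 64.0% (44.5 to 79.8). They included the MHC class II genes H2-Eb1 (6960 bp), H2-Ab1 (4859 bp) and H2-Aa, the class II chaperone Cd74 (4829 bp), the integrin gene Itgax that encodes CD11c (4792 bp), the checkpoint ligand gene Cd274 (7786 bp), the signal regulator Sirpa (6831 bp), and the transcription factor genes Irf8 (6788 bp), Irf4 (5470 bp), Zbtb46 and Batf3. A further 9, among them Flt3, Cd86, Cd40 and Ciita, had a narrower peak, and 9, among them Ccr7, Xcr1 and Clec9a, had none at the start of their longest transcript. Myeloid and lymphoid transcription factors had the highest share of the larger lists, 33 of 44 (95% interval 60.6 to 85.4%), with Zeb2, Bhlhe40 (9817 bp), Etv6 (8869 bp), Id2 (8798 bp), Rara (8545 bp) and Egr2 (8289 bp) at the widest end. Bcl6 is on this list too, but the start of its longest transcript had no peak. It is therefore not among the 44, although a wide domain is named by it above. The GM-CSF and JAK-STAT pathway had 14 of 27 (51.9%), led by Csf2rb (9894 bp), the shared signalling chain of the GM-CSF receptor, its receptor kinase gene Jak2 (8828 bp), Ccnd2 (7905 bp), Csf2rb2 (7757 bp), the kinase gene Pim1 (7517 bp) and the survival factor gene Mcl1 (7054 bp). The TLR and NF-κB pathway had 19 of 34 (55.9%), with Map3k8 (7870 bp), Tnfaip3 (7638 bp), Tlr2 (6996 bp), Tlr4 (6915 bp) and Rel (6572 bp). Cytokines and chemokines had 7 of 21 (33.3%) with an interval from 17.2 to 54.6 that holds the background, and interferon-stimulated genes had 2 of 22, Mx1 and Usp18.

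Housekeeping families together were near the background. Together the 6 families had 47 of 219 genes under a wide domain, or 21.5% (16.5 to 27.4). Ribosomal protein genes had 15 of 76 (19.7%, 12.3 to 30.04), proteasome subunits 7 of 35, NADH dehydrogenase subunits 3 of 33 (9.09%), RNA polymerase II subunits 2 of 12 and spliceosomal Sm and SF3 proteins 2 of 19. Translation initiation factors had the highest share of these families with 18 of 44, or 40.9% (27.7 to 55.6), including Eif2s1 (6299 bp), Eif3a (5661 bp), Eif4g2 (5421 bp) and Eif5b (5238 bp). Several wide housekeeping domains were shared with a neighbouring gene, such as Rpl28 with Tmem238 (7975 bp), Rps18 with Vps52 and B3galt4 (7754 bp) and Rpl35 with Arpc5l (7751 bp). The contrast between the lists depended on the minimum width and was smaller at 3 kb. At that minimum, 54 of 76 ribosomal protein genes and 20 of 25 dendritic cell identity genes were members, against 51.3% of all genes with a peak. At 5 kb, 6 of 76 and 7 of 25 were members, against 9.71% of all. The median width of the peak at the start was 4520 bp for dendritic cell identity genes, 3415 bp for ribosomal protein genes and 3034 bp for all protein-coding genes with a peak.

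**Figure D2:**
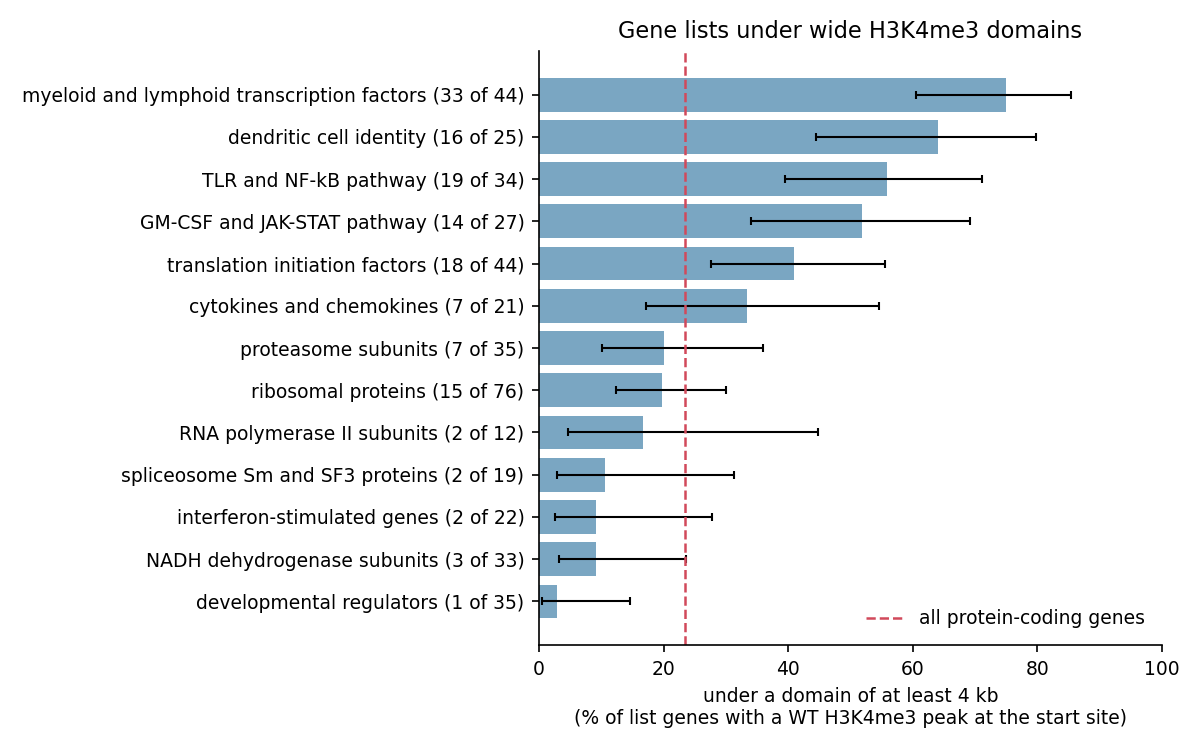
Share of each gene list whose start lay under a wide domain, as a percent of the list's genes with a WT H3K4me3 peak at the start (counts beside the names), with 95% Wilson intervals and the 23.5% of all protein-coding genes as a dashed line. Regulators and dendritic cell identity genes lie to the right of the line, and most housekeeping families have intervals that cross it.

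Apart from the macrophage list, at most 1 marker of any other cell type was under a wide domain. These other lists had at most 2 markers with a peak each, too few to compare their shares with that of dendritic cell markers. Of 14 dendritic cell markers, 12 had a WT H3K4me3 peak at the start and 9 a wide one. All 14 are also on the list of dendritic cell identity genes above, so they are not a separate set. Of the markers of B cells, none of 9 had a peak, and among those of NK cells, neutrophils, erythroid cells, fibroblasts and neurons none was wide. Wide domains on the other lists included Gata3 (4007 bp), 1 of 2 T cell markers with a peak. Kit (4123 bp) was 1 of 2 with a peak on the mast cell and basophil list. On the macrophage list, the wide ones included Mrc1 (5494 bp) and Csf1r (4190 bp). No H3K27ac peak touched the Gata3 or Kit domain in any condition. Of 125 annotated developmental regulators, such as Hox and Wnt genes, 35 had a peak and 1, Wnt11, was wide (5182 bp).

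STAT5 peaks overlapped 353 domains in WT, or 15.0% (13.6 to 16.5), against 5.83% (5.31 to 6.40) of peaks of 2 to 4 kb and 6.84% of all WT H3K4me3 peaks. Per length the contrast was smaller, with 0.0331 STAT5 summits per kb of wide domain and 0.0187 per kb of 2 to 4 kb peaks. In a fixed window of 1 kb to either side of each start, 5.39% (4.58 to 6.33) of starts under wide domains and 3.24% (2.83 to 3.71) of those under 2 to 4 kb peaks held a WT STAT5 summit. The share rose with width inside the set, from 11.7% of domains of 4 to 5 kb to 36.9% of the 84 domains of at least 8 kb. The motif lay within 50 bp of 143 of the 401 WT STAT5 summits in the domains (35.7%), of 37.9% of all WT STAT5 summits, and of 2.28% of windows of the same length at protein-coding starts.

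STAT5 was unevenly spread over the gene lists. A WT STAT5 peak lay in 12 of the 14 domains of the GM-CSF and JAK-STAT pathway, 10 of the 16 of dendritic cell identity genes and 3 of the 46 of housekeeping families. The pathway list holds feedback inhibitors of STAT5 signalling such as Cish and Socs3, so a high share there is favoured by how the list was made. At Cish the strongest STAT5 fold was 68.7 in WT and 55.1 in KO. Prkcd, which encodes protein kinase C delta, was overlapped by a WT STAT5 peak of fold 54.5 whose summit lay outside the domain, and no KO STAT5 peak reached it. At Bcl6 the folds were 52.0 in WT and 53.2 in KO, at Rhoq 45.5 and 28.1, and at Socs3, another feedback inhibitor, 41.7 and 23.3. At Csf2rb they were 31.4 and 22.6. Of these 6 domains, Prkcd alone had no overlapping STAT5 peak in KO. All but Csf2rb were chosen by their WT STAT5 fold, so a lower value in KO is favoured by the choice. The folds are from separate lists whose background coverage was 1.33 fragments per base in WT and 1.70 in KO, and its part was not tested. Over all domains, 289 held a STAT5 peak in KO (12.3%), of which 251 also held one in WT and 38 did not. Of the 401 WT STAT5 summits in the domains, 67.6% (62.9 to 72.0) were in a peak that overlapped a KO peak, and 64.3% (63.1 to 65.4) of those outside H3K4me3 peaks were, with intervals that overlap.

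p65 peaks overlapped 74 domains in WT (3.14%) and 292 in WTLPS (12.4%, 11.1 to 13.8), and 225 of the 292 had none in WT. In WTLPS, 3.88% (3.45 to 4.36) of peaks of 2 to 4 kb and 4.62% of all WT H3K4me3 peaks were overlapped, and summits per kb were 0.0273 in wide domains and 0.0129 in 2 to 4 kb peaks. In windows of 1 kb to either side of the start the shares were 5.11% (4.33 to 6.04) and 2.22% (1.88 to 2.61). In KO cells, p65 peaks overlapped 55 domains before LPS (2.33%) and 218 after it (9.24%, 8.14 to 10.5), against 0.519% and 2.53% of all WT H3K4me3 peaks. Only 120 domains had p65 in both WTLPS and KOLPS, and 98 had it in KOLPS without WTLPS.

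The domains with the highest p65 fold in WTLPS were those of Gsap, Nlrp3, Fpr1, Tnf and the shared domain of Lacc1 and Ccdc122. At Nlrp3 the strongest p65 fold was 11.7 in WT and 41.0 in WTLPS, against 8.80 in KO and 19.3 in KOLPS. At Tnf it was, in the same order of lists, 7.59, 33.4, 5.87 and 13.8, and at Gsap 22.2, 43.7, 11.7 and 19.8. Fpr1, which encodes a receptor for formylated bacterial peptides, was overlapped in WTLPS by a p65 peak of fold 36.1 with its summit outside the domain, and by none in the other 3 lists. These 5 domains were chosen by their WTLPS fold, so a lower value in the other lists is favoured by the choice. Tnfaip3, which encodes the NF-κB inhibitor A20, held the most p65 summits of any domain in WTLPS, 4, with folds of 17.5, 31.3, 15.8 and 22.6 in WT, WTLPS, KO and KOLPS. Of the domains of cytokines and chemokines 5 of 7 held a WTLPS p65 peak, of the TLR and NF-κB pathway 11 of 19, and of housekeeping families 1 of 46. The TLR and NF-κB list holds NF-κB subunits and inhibitors such as Nfkb2 and Tnfaip3, so a high share there is favoured by how the list was made. Domains with WT STAT5 held WTLPS p65 in 32.0% (27.4 to 37.1) of cases, and those without it in 8.92% (7.75 to 10.2). Peaks of 2 to 4 kb differed in the same direction, with 18.3% and 2.99% (2.61 to 3.43). Domains with WT STAT5 had a median width of 5158 bp and the others 4679 bp, and the part of width was not tested.

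WTLPS p65 peaks in the domains overlapped a KOLPS peak more often than those outside H3K4me3 peaks, and about as often as those in peaks of 2 to 4 kb, where the intervals overlap. The share was 36.0% (31.0 to 41.3) of 331 summits in the domains, 32.8% (27.5 to 38.7) of those in peaks of 2 to 4 kb, 25.1% (20.5 to 30.4) of those in H3K4me3 peaks under 2 kb and 21.2% (20.02 to 22.4) of those outside H3K4me3 peaks. Among WTLPS p65 peaks at or above the median −log10 q of their list the shares were 52.7% in the domains and 32.5% outside. In peaks of 2 to 4 kb the share of such peaks was 47.6% (39.6 to 55.7). In the KOLPS list itself, 13.6% of p65 summits lay in the domains, against 6.16% in the WTLPS list, and 77.2% of those in the domains were within 1 kb of a start site, against 54.7% in WTLPS. The share in peaks of 2 to 4 kb was higher in KOLPS as well, with 199 of 1737 summits against 265 of 5374 in WTLPS. Background coverage was 0.855 fragments per base in WTLPS and 0.817 in KOLPS, and its part was not tested.

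SMC1 was the most widespread of the 4 proteins. In WT it overlapped 1611 domains, or 68.3% (66.4 to 70.1), against 43.0% (41.9 to 44.2) of peaks of 2 to 4 kb and 39.5% of all WT H3K4me3 peaks, with 0.241 and 0.170 summits per kb in the first 2 classes. It reached 95.2% of the domains of at least 8 kb, and 849 domains held 2 or more SMC1 summits. All 33 domains of the myeloid and lymphoid transcription factors and all 14 of the GM-CSF and JAK-STAT pathway held a WT SMC1 peak, and 22 of the 46 of housekeeping families did. The share of domains was 62.0% in WTLPS, 62.9% in KO and 47.2% in KOLPS, against 35.2%, 30.1% and 19.04% of all WT H3K4me3 peaks. WT SMC1 summits in the domains were overlapped by a KO peak in 64.6% (62.9 to 66.4) of 2921 cases, against 52.8% (51.1 to 54.4) in peaks of 2 to 4 kb and 31.0% (30.6 to 31.4) outside H3K4me3 peaks. The median fold of these WT peaks was 4.53 in the domains and 5.15 outside H3K4me3 peaks. Background coverage of the SMC1 libraries was 5.40 and 5.34 fragments per base in WT and KO and 5.77 and 4.50 in WTLPS and KOLPS, and its part in these shares was not tested.

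CTCF differed from the other 3. In WT it overlapped 1041 domains, or 44.1% (42.1 to 46.1), against 35.0% (33.9 to 36.1) of peaks of 2 to 4 kb and 26.5% of all WT H3K4me3 peaks. Per length it was sparser in the domains, with 0.0965 summits per kb against 0.115 in 2 to 4 kb peaks, and in windows of 1 kb to either side of the start 19.6% (18.1 to 21.2) of starts under wide domains and 22.0% of those under 2 to 4 kb peaks held a summit. By list, CTCF showed no common contrast between regulators and housekeeping genes. It lay in 4 of the 16 domains of dendritic cell identity genes and 11 of the 14 of the GM-CSF and JAK-STAT pathway. Of the 33 domains of myeloid and lymphoid transcription factors 23 held it. Ribosomal protein genes had it in 9 of 15 domains, and housekeeping families together in 18 of 46. The share of domains was 40.0% in WTLPS, 41.0% in KO and 19.8% in KOLPS, against 24.3%, 19.02% and 10.2% of all WT H3K4me3 peaks. Background coverage of the CTCF libraries was 3.74 and 2.95 in WT and KO and 3.53 and 2.82 in WTLPS and KOLPS, and its part was not tested.

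The CTCF peaks of KO cells in the domains were largely not those of WT. The whole list fell from 59257 peaks in WT to 19898 in KO, while summits in wide domains numbered 1169 in WT and 1306 in KO. Peaks of 2 to 4 kb likewise held similar numbers, 2360 and 2250. Of the 1169 WT summits in the domains, 37.1% (34.4 to 39.9) were in a peak overlapped in KO. In peaks of 2 to 4 kb the share was 40.3% (38.3 to 42.3). In the domains, 841 of the 1306 KO summits were in a peak with no overlap in WT. The CTCF motif lay within 50 bp of 98 of 434 WT summits that had a KO partner (22.6%), of 152 of 735 WT summits without one (20.7%), and of 75 of 465 KO summits with a WT partner (16.1%). It lay near 3 of the 841 KO summits without a WT partner (0.357%, 0.121 to 1.04), against 3.48% of windows of the same length at all protein-coding starts. These 841 summits had a median fold of 4.81, lay a median of 1458 bp from the nearest start site and were within 1 kb of one in 24.9% of cases, against 58.6% of the WT summits without a KO partner. An SMC1 peak of the same condition overlapped 14.2% of them, and 68.3% of the WT summits without a KO partner. Outside H3K4me3 peaks the motif lay near 31.1% of WT and 27.5% of KO CTCF summits. In peaks of 2 to 4 kb the shares were 23.5% and 8.89%, and in all wide domains 21.4% and 5.97%.

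**Figure D3:**
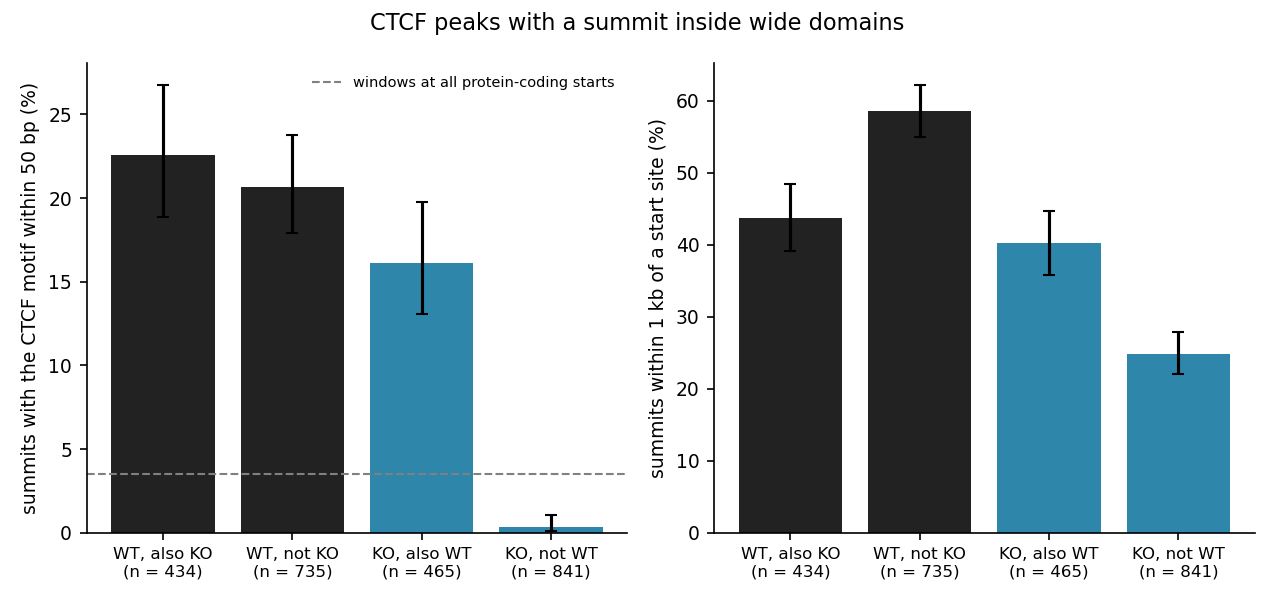
CTCF summits inside wide domains, split by whether their peak overlapped a CTCF peak of the other genotype, with the percent that have the CTCF motif within 50 bp (left, dashed line at 3.48% for windows at all protein-coding starts) and the percent within 1 kb of a start site (right), and 95% Wilson intervals. The 841 KO summits without a WT peak have the lowest value in both panels, 0.357% and 24.9%.

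**Figure D4:**
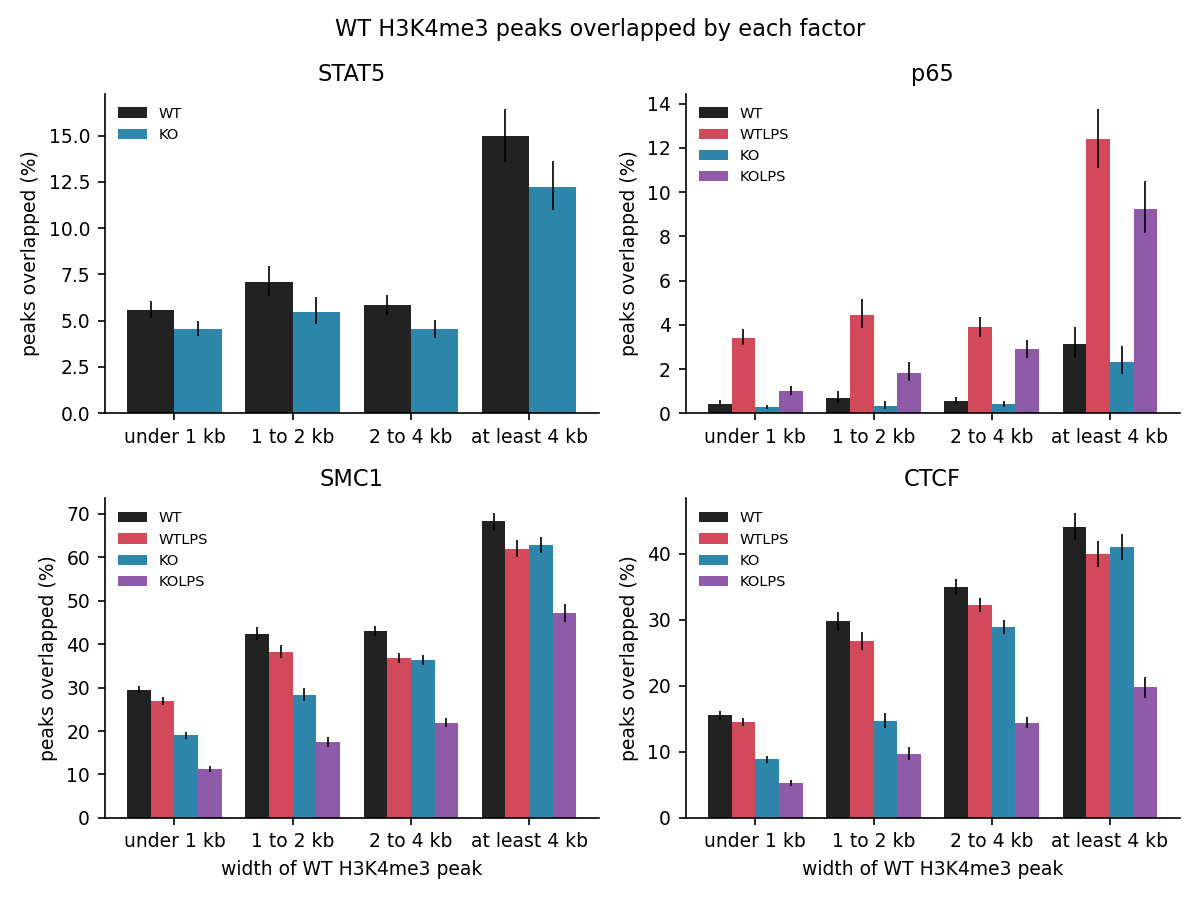
Percent of WT H3K4me3 peaks overlapped by STAT5, p65, SMC1 and CTCF peaks of each condition, by width of the H3K4me3 peak, with 95% Wilson intervals. Each protein has its highest share at peaks of at least 4 kb, such as 15.0% for STAT5 in WT and 12.4% for p65 in WTLPS, where longer peaks have more room for an overlap.

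H3K27ac, the acetylation found at active promoters and enhancers, overlapped 97.0% of the domains in WT and covered a median of 59.8% of a domain's bases (quartiles 38.7 and 79.3), against 35.3% in peaks of 2 to 4 kb. The median rose with width, from 53.5% in domains of 4 to 5 kb to 85.7% in those of at least 8 kb. It was 93.0% in domains of dendritic cell identity genes and 52.5% in those of housekeeping families. Over all domains the median was 56.1% in WTLPS, and it was lower in KO (45.9%) and KOLPS (36.0%). In peaks of 2 to 4 kb it was also below the WT value, at 27.3%, 29.3% and 18.2% in WTLPS, KO and KOLPS. The H3K27ac libraries of KO and KOLPS were the shallower ones, at 0.748 and 0.801 background fragments per base against 1.17 in WT and 1.198 in WTLPS, and the part of depth in these differences was not tested. H2-Eb1 was covered over 100.0% in WT and in WTLPS, 53.2% in KO and 53.6% in KOLPS, and Irf8 over 87.1%, 80.8%, 44.8% and 33.8%. Itgax stayed at 100.0% in all 4 lists. Socs3 went from 26.5% in WT to 95.05% in WTLPS, 72.9% in KO and 88.6% in KOLPS. In the 292 domains with WTLPS p65 the median coverage was 84.2% in WT and 89.0% in WTLPS, and in the 2067 others it was 56.6% and 51.9%. Domain by domain, the median difference of WTLPS minus WT was 0.141 percentage points (quartiles -3.65 and 9.17) in the first and -2.91 (-13.1 and 5.30) in the second. Coverage was higher in WTLPS than in WT in 51.4% of the first and 38.4% of the second.

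In WTLPS, every domain still had an overlapping H3K4me3 peak, and the widest one measured a median of 0.895 times the WT width (quartiles 0.807 and 0.975). The domains were selected on a large WT width, so lower ratios are favoured by the choice itself. When the domains of at least 4 kb in WTLPS were taken instead, the median ratio of WTLPS to WT was 0.964, and the 1667 WTLPS domains lay over 16.4% of genes with a WTLPS peak. Of the WT domains, 63.5% were still at least 4 kb wide. Only 10 (0.424%) were wider by 1.5-fold or more and 147 (6.23%) narrower, against 10.4% and 12.2% of all WT H3K4me3 peaks with a partner, where short peaks dominate, and 0.754% and 6.29% of peaks of 2 to 4 kb. Background coverage was 1.23 in WT and 1.15 in WTLPS, and its part in the widths was not tested. The width is that of the widest overlapping peak, and 26.2% of the domains were split into 2 or more peaks in WTLPS, 21.1% in KO and 30.6% in KOLPS. In the other direction, the widest peak spanned 2 or more WT peaks at 132 domains in WTLPS (5.60%), 272 in KO (11.5%) and 97 in KOLPS (4.11%).

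All 10 domains that were wider by 1.5-fold or more in WTLPS lay under a peak that spanned 2 or more WT peaks, so their ratios count the joining of neighbouring peaks. The highest ratios among domains with 1 start were at Tnip1, Tnf, Nr3c1, Nfkb2 and Wbp1, and a large WTLPS width is fixed by that choice. Tnip1, which encodes an A20-binding inhibitor of NF-κB, held a pair of wide WT domains of 4511 and 4129 bp, which together spanned 10422 bp in WT and lay under a single peak of 11623 bp in WTLPS. At Tnf, 3 WT peaks over 9064 bp, the widest of 4492 bp, gave way to a WTLPS peak of 7784 bp, and the widest peaks in KO and KOLPS measured 3511 and 3144 bp. At Nfkb2, the p100 subunit gene, WT peaks over 5860 bp, of which the domain took 4079 bp, lay under 6536 bp in WTLPS. At Nr3c1, the glucocorticoid receptor gene, 3 WT peaks over 9013 bp lay under 8021 bp in WTLPS, where the domain itself measured 4781 bp in WT. The WTLPS peak was thus longer than the WT span at Tnip1 and Nfkb2 and shorter at Tnf and Nr3c1. Il1a, which encodes IL-1α, measured 4376 bp in WT and 6157 bp in WTLPS, where its WT peaks spanned 5734 bp. The lowest ratios in WTLPS were at Tmem51 (0.385), C77080 (0.388), Csk, Ddx19b (0.402) and Foxl2. Csk, which encodes a kinase that restrains Src family kinases, measured 8779 bp in WT and was split into 5 peaks in WTLPS, the widest of 3437 bp, and into 3 in KO, the widest of 4603 bp. In KOLPS it had 1 peak of 3080 bp. Domains with WTLPS p65 had a median WTLPS to WT ratio of 0.941 (quartiles 0.858 and 1.02) and the others 0.890 (0.801 and 0.970). By list, the median was 1.06 for the 7 domains of cytokines and chemokines, 0.991 for the 19 of the TLR and NF-κB pathway, 0.922 for the 16 of dendritic cell identity genes and 0.870 for the 46 of housekeeping families.

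In KO, the median ratio to WT was 0.991 (quartiles 0.897 and 1.08) and 81.2% of the domains stayed at least 4 kb wide. Chosen in the KO list, the median ratio was 1.08, so no direction of change is read from these values. KO held 2797 peaks of at least 4 kb, over 27.2% of genes with a KO peak. In KO, 115 WT domains (4.88%) were narrower by 1.5-fold or more and 26 (1.10%) wider, against 9.33% and 18.7% of all WT peaks with a partner and 4.12% and 3.45% of peaks of 2 to 4 kb. The lowest ratio among domains with 1 start was at Fpr1, with 5816 bp in WT, 5872 bp in WTLPS, 1237 bp in KO and 1723 bp in KOLPS. C77080 had a ratio of 0.243 in KO. Mcemp1 measured 6309, 2619, 2359 and 1822 bp, Zbtb7b, a transcription factor gene, 4109, 4123, 1533 and 287 bp, and Ltb4r1, a leukotriene B4 receptor gene, 4246, 3573, 1249 and 914 bp. Tlr4 measured 6915, 6014, 3499 and 3527 bp, and Tlr2 6996, 6790, 4508 and 3741 bp, and in KO each was split into 3 peaks, of which the widest is given. Of the 26 wider domains, 21 lay under a KO peak that spanned 2 or more WT peaks. Of the 5 highest ratios among domains with 1 start, Ric1 (4679 bp in WT, 11297 bp in KO) and Fscn1, an actin-bundling gene of mature dendritic cells (5018 and 9609 bp), lay under a KO peak that spanned no other WT peak. The others were joined. Pfn1, which encodes profilin, and the neighbouring domain of Rnf167 and Slc25a11 spanned 11038 bp in WT and lay under a single KO peak of 11311 bp. WT peaks over 8549 bp at Birc2 and 8147 bp at Rgmb lay under KO peaks of 9036 and 9772 bp. At Rel, an NF-κB subunit gene, the domain measured 6572 bp in WT, and WT peaks over 9182 bp lay under a KO peak of 10412 bp. Domains that lost their CTCF overlap in KO had a median KO to WT ratio of 0.987 (486 domains) and the rest 0.993 (1873 domains), and those that lost STAT5 0.994 (102 domains) against 0.991.

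In KOLPS, the median ratio to WT was 0.833 (quartiles 0.713 and 0.929), and 0.935 when the domains were chosen in KOLPS. In this list 50.1% of the WT domains remained at least 4 kb wide, 411 (17.4%) were narrower by 1.5-fold or more against 21.0% of all WT peaks with a partner and 15.6% (14.8 to 16.5) of peaks of 2 to 4 kb. A further 7 (0.297%) were wider, against 8.59% of all and 0.571% of 2 to 4 kb peaks. The list held 1318 peaks of at least 4 kb, over 13.1% of genes with a KOLPS peak, and had the lowest background coverage of the 4, 1.13. Within the KO genotype, KOLPS to KO had a median of 0.839 at the WT domains, 0.809 for domains chosen in KO and 0.899 for those chosen in KOLPS, so all 3 choices gave a value below 1. Of the macrophage markers, Mrc1 measured 5494 bp in WT and 2448 bp in KOLPS, and Csf1r 4190 and 2699 bp. Tspan32 (4745 and 297 bp), Gpnmb (5307 and 957 bp), Cd93 (5538 and 1017 bp) and Plet1 (5886 and 1227 bp) had the lowest single-start ratios beside Zbtb7b. Csrnp1 (4010 and 9733 bp), Birc2 (8073 bp in KOLPS), Zc3h12c (4673 and 7680 bp), Ric1 (7507 bp) and Cacnb3 (5472 and 8278 bp) had the highest, and of these Ric1 alone lay under a peak that spanned no other WT peak. At Csrnp1 a pair of wide WT domains that spanned 9012 bp lay under the KOLPS peak. Of the widest, Psap measured 13923, 10086, 10222 and 7094 bp in WT, WTLPS, KO and KOLPS, Zeb2 12833, 13733, 12607 and 7967 bp, and Brd2 10812, 10917, 10170 and 10363 bp. In all, 1004 domains (42.6%, 40.6 to 44.6) were at least 4 kb wide in all 4 lists and 276 (11.7%) only in WT.

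**Figure D5:**
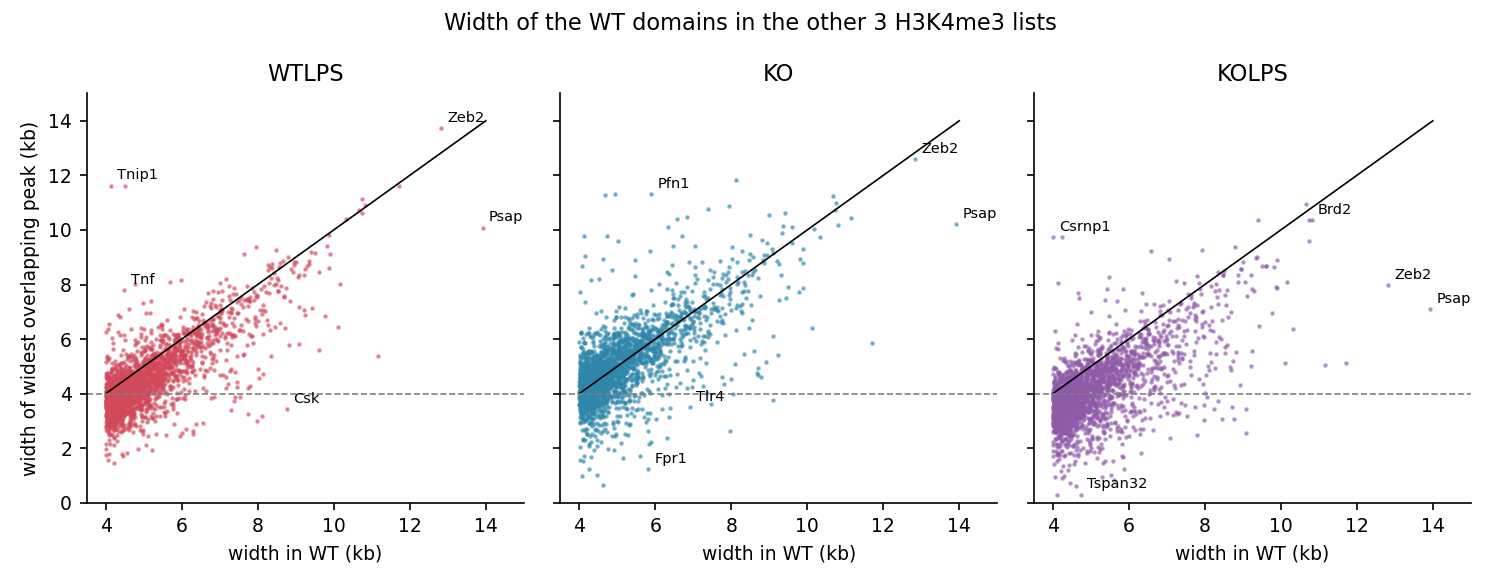
Width of the widest overlapping H3K4me3 peak in WTLPS, KO and KOLPS (kb, vertical axis) against the width in WT (kb) for each wide domain, with the line of equal width and a dashed line at 4 kb. Most points lie below the line of equal width in WTLPS and KOLPS and on both sides of it in KO, with median ratios of 0.895, 0.833 and 0.991, and points far above the line in WTLPS, such as Tnip1 and Tnf, are peaks that span 2 or more WT peaks.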

How the data were processed

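ChIP-seq peaks were taken as deposited. According to the submitters' processing notes the authors used BWA 0.7.12, Picard 1.77, MACS2 2.1.2 and deepTools 3.1.3 with mm10, while the methods of the study give a later version of each. The deposited columns hold, at each peak, a fold value (a linear ratio of pileup over expected background) and −log10 values of the p-value and q-value. H3K4me1 and H3K27me3 lists are broad peaks and the others narrow peaks with a summit. The CTCF and SMC1 lists begin at a −log10 p of 7, and the p65 lists had problem regions removed by the authors. A wide peak is one unbroken call, so its width depends on the depth and background of its library.

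The 30 lists had 1 list per antibody and condition, and the 4 inputs had no list. Peaks on chromosomes 1 to 19 were used, since the rule for the domains is set there. Lists were called overlapped at a shared 1 bp. Genes were assigned by the start of their longest transcript among 20807 protein-coding genes of GENCODE vM21. The width in another condition was that of the widest overlapping peak, and the WT peaks which that peak spans were counted, a count added after the data were seen. Coverage of a library, in fragments per background base, was recovered from fold and −log10 p, under the MACS2 formula, as the most frequent background level among peaks with −log10 p below 25. Across the 4 H3K4me3 libraries it ranged from 1.13 to 1.23, and the read depth itself is unknown. Scripts used Python 3.11.15, pandas 2.3.3, numpy 2.4.6, scipy 1.17.1 and matplotlib 3.10.9, and interval functions were tested on simulated data. Motifs were searched in GRCm38.p6 from RefSeq.

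The members, the gene lists and the motif letters were chosen with earlier results of these data known. Genes named were the 10 widest domains, 2 on either side of 4 kb, up to 6 of the widest in each list, the 5 lowest and 5 highest width ratios per condition among domains with 1 start, and the 5 highest STAT5 folds in WT and p65 folds in WTLPS. Other list members are named as examples of a count. One listed gene is not reported here. Alternatives were a minimum of 3 or 5 kb, a −log10 q of at least 10, summits inside the domain, joined H3K4me3 peaks, other start definitions, covered bases and choice in the other list. Shares in windows of 1 kb to either side of a start were added after the data were seen. Without replicates no test was run.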

Additional observations from a re-analysis of the deposited data

How the results depend on the processing

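With 1 list per antibody and condition, no setting could leave out a replicate. No paired analysis was possible because each condition had 1 list per antibody. Of 64 values recomputed under an alternative, 28 stayed within their interval (for the number of domains, within 1.5 times), 34 moved further and 2 reversed. At a minimum of 3 kb there were 5420 domains, a start site lay in 87.5%, 80.0% of dendritic cell identity genes and 71.1% of ribosomal protein genes were members, STAT5 overlapped 10.4%, p65 7.97%, SMC1 56.6% and CTCF 39.9%, H3K27ac covered 49.8%, and the KO to WT width ratio was on the other side of 1, at 1.01. At 5 kb there were 953 domains, the gene shares were 28.0% and 7.90%, the overlaps 19.8%, 17.6%, 80.1% and 49.8%, the H3K27ac coverage 69.0%, and the width ratios 0.905 in WTLPS, 0.977 in KO and 0.822 in KOLPS. With only peaks at a −log10 q of at least 10, STAT5 overlapped 8.73% of domains, p65 5.17%, SMC1 46.5% and CTCF 32.9%, and H3K27ac covered 46.3%. With H3K4me3 peaks under 500 bp apart joined, there were 2878 domains, H3K27ac covered 55.2% and the KO ratio was 0.999. With a summit required inside the domain, CTCF lay in 39.1%. A start of any transcript lay in 97.4% of domains, and 90.0% lay within 2.5 kb of the start of a longest transcript. By bases of the WT domain covered, the ratios were 0.958 in KO and 0.853 in KOLPS. Chosen in the other list, they were 0.964 in WTLPS, 1.08 in KO, on the other side of 1, and 0.935 in KOLPS. The cause of these moves was not tested beyond the change of members or peaks that each setting makes.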

Other observations

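H3K4me1, a mark of enhancers and promoter flanks, overlapped 98.8% of the wide domains in WT. It overlapped 91.5% of peaks of 2 to 4 kb and 78.5% of all WT H3K4me3 peaks, and longer peaks have more room for overlap. It covered a median of 49.6% of a wide domain, 40.1% of a peak of 2 to 4 kb and 47.6% over all WT H3K4me3 peaks. In KOLPS it overlapped 94.2% of the domains, 77.0% of peaks of 2 to 4 kb and 63.0% of all peaks. H3K27me3, the mark of Polycomb repression, overlapped 6.23% (5.32 to 7.28) of the wide domains in WT, against 11.6% (10.8 to 12.3) of peaks of 2 to 4 kb and 14.7% of all peaks. In KOLPS the 3 shares were 2.03%, 3.40% and 4.00%, so it was lower in all of them.

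The bases within 500 bp of starts under wide domains had a median GC content of 62.1% (quartiles 57.0 and 67.2) and a median observed to expected CpG ratio of 0.813, against 59.5% and 0.756 under peaks of 2 to 4 kb and 57.4% and 0.649 under peaks of 1 to 2 kb. Over the whole peak the order was not the same, with a median GC content of 49.5% in wide domains and 50.4% in peaks of 2 to 4 kb. The median gene length was 34499 bp for domains with 1 start and 24928 bp for peaks of 2 to 4 kb. The p65 motif lay within 50 bp of 31.1% (21.7 to 42.3) of the 74 WT p65 summits in wide domains and of 14.8% (11.4 to 19.03) of the 331 in WTLPS. Of the WTLPS summits it lay near 29.7% of those overlapped by a WT p65 peak and 11.2% of the others.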
